A study of Rattus norvegicus with 18 samples.

Results

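Mast cell genes were followed in RNA from the lungs of rats given multiwall carbon nanotubes (MWCNT), fibrous carbon particles that stay in the lung. The members were chosen by name, with earlier results of these data known. They are the receptor *Kit* and its ligand *Kitlg*, the granule proteases *Cpa3*, *Tpsab1*, *Tpsb2*, and *Cma1*, the IgE receptor chains *Fcer1a* and *Ms4a2*, and the histamine-forming enzyme *Hdc*. All 9 genes were found among the 22081 genes of the deposited tables, each under 1 name. The animals were male F344 rats, an inbred strain, and all began the study at 9 weeks of age. Control rats received the vehicle and MWCNT-treated rats received MWNT-7 at 0.5 mg/kg by intratracheal instillation every 4 weeks. The 18 rats formed 6 groups of 3, a control and a treated group at weeks 26, 52, and 104 of treatment. These times are called Year 0.5, when the rats were 35 weeks old, Year 1, at 61 weeks, and Year 2, at 113 weeks. The RNA came from tumor-free pieces of the accessory lobe, so the values are averages over every cell type in a piece of lung. Total counts per rat ranged from 13297643 to 17868851 in control rats and from 14661589 to 21130757 in MWCNT-treated rats.

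Mast cells are tissue-resident immune cells that store proteases, histamine, and heparin in granules. They depend on KIT, a receptor tyrosine kinase, and on its ligand stem cell factor, the product of *Kitlg*, for survival and growth. Antigen that binds IgE on the high-affinity IgE receptor makes the cells release their granules. KIT is not restricted to mast cells, since lung capillary endothelial cells also carry it, and KIT ligand is made by stromal, epithelial, and endothelial cells. Mast cells lie around airways, vessels, and pleura in the lung, and they are fewer in the alveolar tissue.

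The promoters of the members were searched for the letters AGATAA and TGATAA, 2 forms of the site bound by GATA transcription factors, because *Gata2* is a regulator of mast cell genes and was itself measured. The sequences are from RefSeq, build GRCr8, and run from 250 bases before to 50 bases after the gene start. Of the 9 members, 8 had an entry, and *Ms4a2* is only named. The letters AGATAA stood in the promoters of *Cpa3*, *Cma1*, and *Fcer1a*, and neither form stood in those of *Kit*, *Kitlg*, *Tpsab1*, *Tpsb2*, and *Hdc*. Over both strands, AGATAA was in 11.3% of 27457 promoters of the same length, TGATAA in 8.89%, and at least 1 of them in 18.6%. The letters CATGTG and CACGTG, E-box forms that MITF can bind, were searched in the same way. CATGTG stood in the promoters of *Cpa3*, *Tpsb2*, and *Fcer1a* and in 13.5% of all promoters, and CACGTG stood in none of the 8 and in 6.65% of all. No 2 matches overlapped. The promoters with AGATAA are shown because these genes were among those higher in MWCNT-treated rats at Year 2. *Cpa3* is at chr2:104673188-104673487 on the minus strand, *Cma1* at chr15:33390084-33390383 on the minus strand, and *Fcer1a* at chr13:88224630-88224929 on the minus strand. The capitals mark AGATAA, or TTATCT where the motif lies on the opposite strand.
Cpa3: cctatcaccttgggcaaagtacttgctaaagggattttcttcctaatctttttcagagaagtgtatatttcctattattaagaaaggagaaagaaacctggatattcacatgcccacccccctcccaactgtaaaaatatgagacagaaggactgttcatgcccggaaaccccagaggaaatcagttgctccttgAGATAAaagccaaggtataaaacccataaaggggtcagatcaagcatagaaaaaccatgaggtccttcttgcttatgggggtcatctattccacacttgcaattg
Cma1: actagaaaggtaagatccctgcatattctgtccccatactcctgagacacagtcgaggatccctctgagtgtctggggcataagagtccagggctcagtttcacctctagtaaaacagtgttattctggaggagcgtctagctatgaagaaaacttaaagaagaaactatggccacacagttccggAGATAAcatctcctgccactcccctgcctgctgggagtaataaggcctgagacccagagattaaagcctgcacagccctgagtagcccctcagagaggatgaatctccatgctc
Fcer1a: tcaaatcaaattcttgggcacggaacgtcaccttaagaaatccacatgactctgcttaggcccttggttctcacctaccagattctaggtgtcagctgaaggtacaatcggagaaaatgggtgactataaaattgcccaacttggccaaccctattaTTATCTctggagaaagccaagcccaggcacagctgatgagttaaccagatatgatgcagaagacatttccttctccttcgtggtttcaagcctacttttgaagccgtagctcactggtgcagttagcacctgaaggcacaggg
A match of 6 letters is a description and not a bound site.

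*Kit* was lower in MWCNT-treated rats at every year and fell at Year 0.5 and Year 2. Of the 4 granule protease genes and 2 IgE receptor chains, *Cpa3* and *Tpsb2* rose at Year 0.5, all but *Fcer1a* rose at Year 1, and all 6 rose at Year 2. Levels are given as TPM, transcript abundances that are divided by gene length and sum to the same total in each rat. Differences are log2 fold changes of MWCNT-treated against control rats from edgeR's quasi-likelihood test on the counts, with the standard error (SE). A gene is called, and is said to have risen or fallen, where the Benjamini-Hochberg false discovery rate (FDR) was below 0.05 and the absolute log2 fold change was above 1. At Year 0.5, 2 members rose and 1 fell of 7 tested, where 6.07% of all genes tested rose and 3.03% fell. At Year 1, 5 members rose and 0 fell of 8 tested, beside 6.13% and 4.09% of all genes. At Year 2, 6 members rose and 1 fell of 9 tested, beside 8.17% and 8.22% of all genes. Without the fold limit, at an FDR below 0.05, 5, 7, and 9 members passed at the 3 years, beside 38.8%, 41.2%, and 49.2% of all genes tested. *Tpsab1* and *Fcer1a* were left out of the test at Year 0.5 and *Fcer1a* at Year 1 by a filter on low counts. At Year 2 both entered the test through the treated rats, with 6, 4, and 2 counts and 8, 4, and 9 counts in control rats. Treated rats also carried *Tpsb2* (19, 12, and 9 control counts) and *Cma1* (17, 9, and 7) past the filter at Year 2. The same held for *Tpsab1* (12, 6, and 13) and *Cma1* (3, 7, and 11) at Year 1. It held as well for *Cpa3* (9, 6, and 20) and *Tpsb2* (7, 7, and 13) at Year 0.5. With at least 10 counts in every rat, 0 rose and 1 fell at Year 0.5 and 2 rose and 0 fell at Year 1. At Year 2, 2 rose and 1 fell under that filter. The members were also chosen with earlier results known. Counts beside shares of all genes are thus a description and not a test of the set. The median log2 fold change of the tested members was 1.00 at Year 0.5, 2.40 at Year 1, and 4.16 at Year 2, beside medians of -0.02, 0.00053, and -0.01 over all genes tested. These medians are over 7, 8, and 9 members. Among the 7 members tested at every year, *Ms4a2* was the middle one each time, at 1.00, 1.69, and 4.16. When libraries were scaled by their totals alone, the median of all genes shifted to -0.12, -0.13, and -0.18, and all members kept their direction. In bulk tissue, fewer cells of a type and less RNA per cell cannot be told apart.

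**Figure D1:**
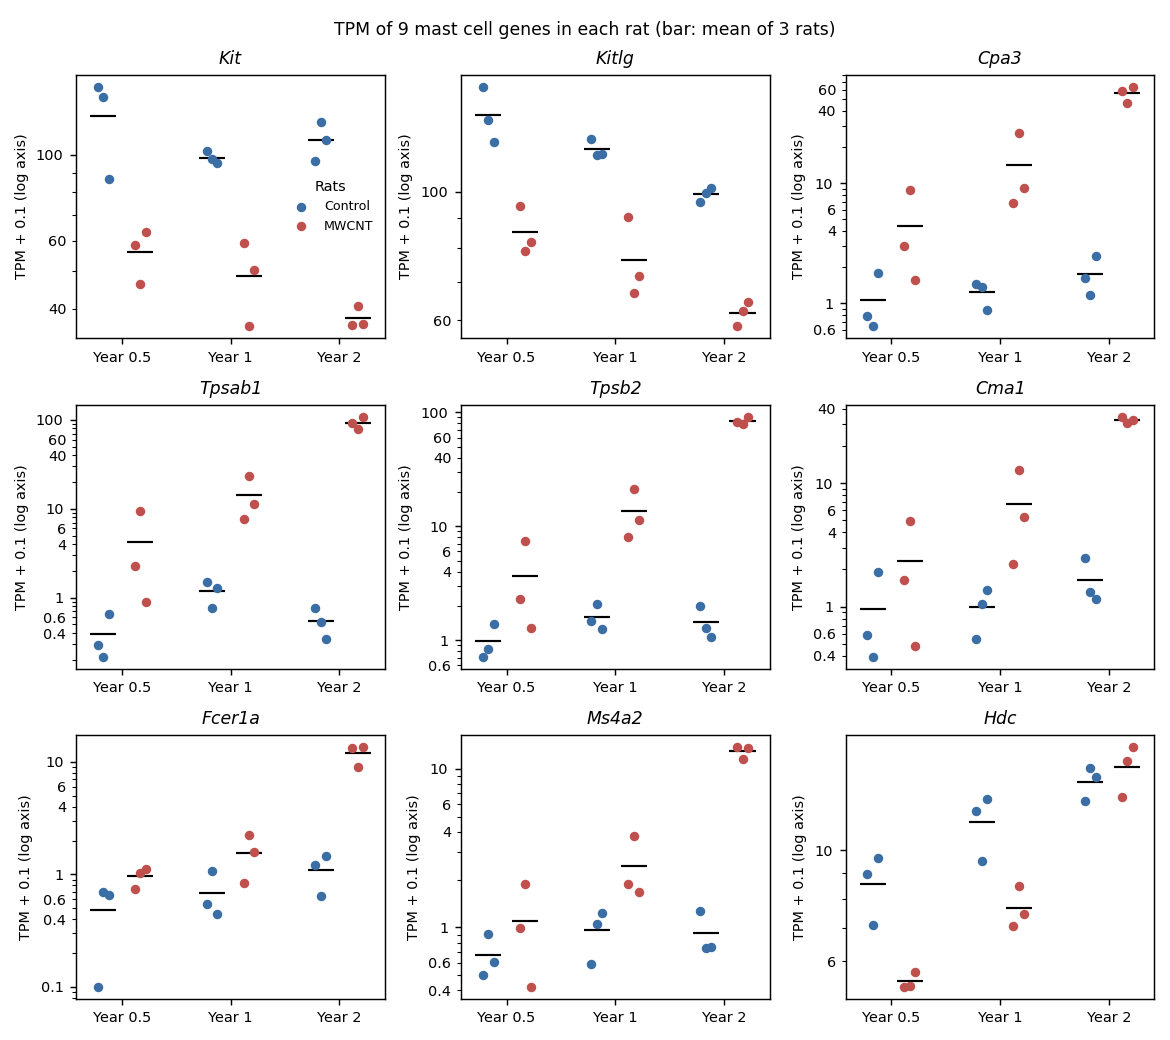
TPM + 0.1 of the 9 mast cell genes on log axes, 1 panel per gene, with 1 point per rat, control rats in blue, MWCNT-treated rats in red, and a bar at the mean of 3 rats. *Kit* and *Kitlg* of the MWCNT-treated rats lie below those of the control rats of the same year, and the proteases and IgE receptor chains of the Year 2 MWCNT-treated rats lie far above every control rat.

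*Kit* encodes the receptor for stem cell factor and lies on chromosome 14 at 35072108 to 35149610 on the minus strand of Rnor_6.0 (ENSRNOG00000002227). *Kit* at Year 0.5 was at 149.9, 140.8, and 86.7 TPM in control rats and 58.3, 46.4, and 63.1 TPM in MWCNT-treated rats. *Kit* at Year 1 was at 101.9, 97.4, and 95.1 TPM in control rats and 59.2, 36.0, and 50.2 TPM in MWCNT-treated rats. *Kit* at Year 2 was at 96.2, 121.1, and 109.2 TPM in control rats and 36.4, 40.6, and 36.5 TPM in MWCNT-treated rats. The treated and control ranges did not overlap at any year, and over all years the highest treated rat was at 63.1 TPM and the lowest control rat at 86.7 TPM. *Kit* fell at Year 0.5, with a log2 fold change of -1.03 (SE 0.19, edgeR FDR = 0.00308). At Year 1 the log2 fold change was -0.79 (SE 0.14, edgeR FDR = 0.0019), inside the fold limit. *Kit* fell at Year 2, with a log2 fold change of -1.31 (SE 0.08, edgeR FDR = 4.12e-06). The Year 0.5 value was close to the fold limit, and it was -0.89 without control rat 1, -0.94 without control rat 2, and -0.91 without MWCNT-treated rat 2. The Year 1 value was -1.03 with limma on log2(TPM + 1), past the limit. In one model of all 18 rats the mean over the 3 years was -1.04 (SE 0.10, edgeR FDR = 7.68e-08), where 7.72% of all genes rose and 5.67% fell, and 6 members rose and 1 fell. That mean was -0.995 without control rat 1 of Year 0.5 and -0.994 without MWCNT-treated rat 2 of Year 1, inside the fold limit.

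*Kitlg* encodes the KIT ligand and lies on chromosome 7 at 42269784 to 42351054 on the plus strand (ENSRNOG00000005386). *Kitlg* at Year 0.5 was at 151.7, 132.9, and 121.6 TPM in control rats and 94.4, 78.9, and 81.8 TPM in MWCNT-treated rats. *Kitlg* at Year 1 was at 123.4, 115.4, and 115.9 TPM in control rats and 90.2, 66.7, and 71.4 TPM in MWCNT-treated rats. *Kitlg* at Year 2 was at 95.8, 99.3, and 101.4 TPM in control rats and 58.5, 62.1, and 64.5 TPM in MWCNT-treated rats. Treated rats were below control rats at each year without overlap, by a smaller ratio than for *Kit*. The log2 fold change was -0.53 (SE 0.10, edgeR FDR = 0.00289) at Year 0.5. It was -0.40 (SE 0.10, edgeR FDR = 0.0126) at Year 1 and -0.46 (SE 0.06, edgeR FDR = 0.000288) at Year 2, so *Kitlg* passed the FDR at each year and stayed inside the fold limit. *Kitlg* was also lower in older control rats, with a log2 difference of -0.45 between Year 2 and Year 0.5 (SE 0.09, edgeR FDR = 0.0124).

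*Cpa3* encodes carboxypeptidase A3, an exopeptidase of mast cell granules, and lies on chromosome 2 at 105016626 to 105047984 on the minus strand (ENSRNOG00000011181). *Cpa3* at Year 0.5 was at 0.675, 0.540, and 1.69 TPM in control rats and 2.89, 8.58, and 1.46 TPM in MWCNT-treated rats. *Cpa3* at Year 1 was at 1.35, 1.26, and 0.775 TPM in control rats and 6.74, 26.0, and 8.97 TPM in MWCNT-treated rats. *Cpa3* at Year 2 was at 1.53, 1.08, and 2.38 TPM in control rats and 58.3, 46.1, and 63.7 TPM in MWCNT-treated rats. The groups overlapped at Year 0.5, where MWCNT-treated rat 2 was the highest, and were apart at Year 1 and Year 2. *Cpa3* rose at Year 0.5 (log2 fold change 2.33, SE 0.69, edgeR FDR = 0.0264), Year 1 (3.91, SE 0.61, edgeR FDR = 0.00114), and Year 2 (5.30, SE 0.23, edgeR FDR = 5.04e-07). The Year 2 value was a 39.4-fold difference. Without MWCNT-treated rat 2 the Year 0.5 value was 1.31 (edgeR FDR = 0.12), and the call was also lost without control rat 1 (2.11, edgeR FDR = 0.101) and without control rat 2 (2.07, edgeR FDR = 0.0823).

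*Tpsab1* and *Tpsb2* encode tryptases, the trypsin-like proteases that are the most abundant proteins of many mast cells. They lie near each other on chromosome 10, *Tpsab1* at 14701253 to 14703668 on the minus strand (ENSRNOG00000024181) and *Tpsb2* at 14722756 to 14724600 on the plus strand (ENSRNOG00000018611). They are close paralogs, and the handling of reads that match both is not given in the sources used here, so the split of counts between them is uncertain. The TPM of *Tpsab1* at Year 0.5 was 0.196, 0.118, and 0.552 in control rats and 2.15, 9.44, and 0.805 in MWCNT-treated rats. These control values stood on 2, 1, and 5 counts. At Year 1, *Tpsab1* was at 1.42, 0.658, and 1.199 TPM in control rats and 7.63, 23.3, and 11.3 TPM in MWCNT-treated rats. At Year 2, *Tpsab1* was at 0.665, 0.434, and 0.239 TPM in control rats, on 6, 4, and 2 counts, and at 92.8, 77.7, and 108.2 TPM in MWCNT-treated rats. The ranges did not overlap at any of the 3 years. *Tpsab1* rose at Year 1 (log2 fold change 3.94, SE 0.52, edgeR FDR = 0.000479) and at Year 2 (7.86, SE 0.24, edgeR FDR = 1.56e-07). The Year 2 difference was 232-fold, the widest of the 9 members, and its denominator rests on 12 counts over the 3 control rats.

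The TPM of *Tpsb2* at Year 0.5 was 0.618, 0.741, and 1.29 in control rats and 2.21, 7.28, and 1.18 in MWCNT-treated rats. At Year 1 it was at 1.38, 1.97, and 1.16 TPM in control rats and 7.92, 21.1, and 11.3 TPM in MWCNT-treated rats. At Year 2 it was at 1.89, 1.17, and 0.967 TPM in control rats and 82.6, 79.0, and 91.3 TPM in MWCNT-treated rats. The groups overlapped at Year 0.5 only. *Tpsb2* rose at Year 0.5 (log2 fold change 2.20, SE 0.69, edgeR FDR = 0.0329), Year 1 (3.43, SE 0.44, edgeR FDR = 0.000404), and Year 2 (6.16, SE 0.18, edgeR FDR = 1.56e-07). The Year 2 difference was 71.7-fold. Without MWCNT-treated rat 2 the Year 0.5 value was 1.08 (edgeR FDR = 0.156), and the call was lost as well without control rat 1 (1.98, edgeR FDR = 0.118) and without control rat 2 (2.10, edgeR FDR = 0.0891).

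*Cma1* encodes a mast cell chymase, a chymotrypsin-like protease, and lies on chromosome 15 at 34601037 to 34603819 on the minus strand (ENSRNOG00000020563). *Cma1* at Year 0.5 was at 0.490, 0.294, and 1.79 TPM in control rats and 1.53, 4.82, and 0.377 TPM in MWCNT-treated rats. *Cma1* at Year 1 was at 0.442, 0.957, and 1.27 TPM in control rats and 2.10, 12.6, and 5.17 TPM in MWCNT-treated rats. *Cma1* at Year 2 was at 2.35, 1.22, and 1.04 TPM in control rats and 34.3, 30.3, and 32.4 TPM in MWCNT-treated rats. The ranges overlapped at Year 0.5 and were apart afterwards, with the 3 treated rats of Year 2 close to each other. The log2 fold change at Year 0.5 was 1.59 (SE 0.88, edgeR FDR = 0.184), which did not pass, and it was 0.29 without MWCNT-treated rat 2 and 2.66 without control rat 3. *Cma1* rose at Year 1 (log2 fold change 3.12, SE 0.70, edgeR FDR = 0.0075) and at Year 2 (4.58, SE 0.26, edgeR FDR = 2.24e-06), the latter a 24.0-fold difference.

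*Fcer1a* encodes the IgE-binding alpha chain of the high-affinity IgE receptor and lies on chromosome 13 at 91730925 to 91737053 on the minus strand (ENSRNOG00000009177). It had 0, 4, and 4 counts in the control rats of Year 0.5 and 5, 10, and 8 counts in the MWCNT-treated rats. At Year 1 it had 3, 7, and 3 counts in control rats and 6, 20, and 12 counts in MWCNT-treated rats. At Year 2 it was at 1.11, 0.544, and 1.35 TPM in control rats and at 13.3, 8.97, and 13.5 TPM in MWCNT-treated rats, on 103, 79, and 110 counts. *Fcer1a* rose at Year 2 (log2 fold change 3.78, SE 0.36, edgeR FDR = 3.41e-05), a 13.7-fold difference, and was too low for a test at the earlier years.

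*Ms4a2* encodes the beta chain of the IgE receptor, which amplifies its signal, and lies on chromosome 1 at 227957302 to 227965386 on the minus strand (ENSRNOG00000020993). *Ms4a2* at Year 0.5 was at 0.404, 0.807, and 0.505 TPM in control rats and 0.889, 1.77, and 0.322 TPM in MWCNT-treated rats. *Ms4a2* at Year 1 was at 0.485, 0.952, and 1.14 TPM in control rats and 1.77, 3.67, and 1.58 TPM in MWCNT-treated rats. *Ms4a2* at Year 2 was at 1.17, 0.645, and 0.656 TPM in control rats and 13.7, 11.5, and 13.4 TPM in MWCNT-treated rats. The ranges overlapped at Year 0.5 and did not at Year 1 and Year 2. The log2 fold change at Year 0.5 was 1.00 (SE 0.58, edgeR FDR = 0.209), which did not pass, and it was 1.41 (edgeR FDR = 0.0479) without MWCNT-treated rat 3, which did, and 0.24 without MWCNT-treated rat 2. *Ms4a2* rose at Year 1 (log2 fold change 1.69, SE 0.44, edgeR FDR = 0.0144) and at Year 2 (4.16, SE 0.24, edgeR FDR = 2.24e-06), the latter a 17.9-fold difference. The Year 1 call was lost without MWCNT-treated rat 2 (log2 fold change 1.13, edgeR FDR = 0.0516).

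*Hdc* encodes histidine decarboxylase, the enzyme that makes histamine, and lies on chromosome 3 at 119057517 to 119075619 on the minus strand (ENSRNOG00000010262). *Hdc* at Year 0.5 was at 8.89, 7.0, and 9.54 TPM in control rats and 5.24, 5.27, and 5.62 TPM in MWCNT-treated rats. *Hdc* at Year 1 was at 11.9, 9.41, and 12.5 TPM in control rats and 6.97, 8.39, and 7.35 TPM in MWCNT-treated rats. *Hdc* at Year 2 was at 12.4, 14.5, and 13.9 TPM in control rats and 12.7, 15.0, and 16.01 TPM in MWCNT-treated rats. Treated rats lay below control rats at Year 0.5 and Year 1, and the groups overlapped at Year 2. The log2 fold change was -0.51 (SE 0.16, edgeR FDR = 0.0295) at Year 0.5 and -0.34 (SE 0.16, edgeR FDR = 0.121) at Year 1. At Year 2 it was 0.31 (SE 0.11, edgeR FDR = 0.0413), and none of the 3 values passed the fold limit. The Year 2 value had an edgeR FDR of 0.327 when libraries were scaled by their totals alone and 0.0901 in DESeq2.

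**Figure D2:**
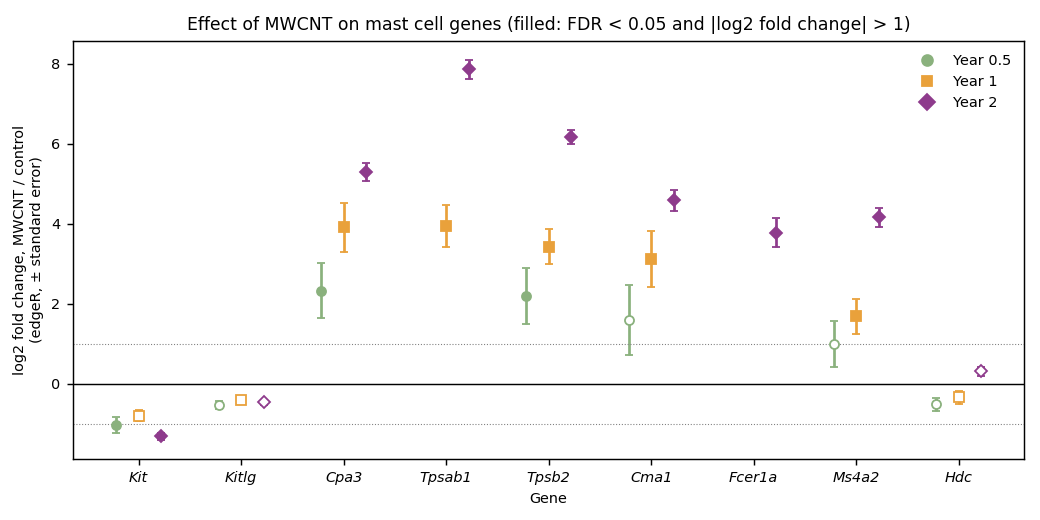
log2 fold change of MWCNT-treated against control rats for the 9 genes at each year, with the standard error as bars, dotted lines at the fold limit, and filled symbols for called genes. The 6 protease and receptor chain genes lie above 3.5 at Year 2, *Kit* and *Kitlg* lie below 0 at every year, and *Hdc* crosses from below to above 0. *Tpsab1* at Year 0.5 and *Fcer1a* at Year 0.5 and Year 1 were not tested and have no symbol.

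Non-overlapping ranges were counted over the 9 members on the TPM scale. At Year 0.5, 2 members lay above, *Tpsab1* and *Fcer1a*, and 3 below the control rats, at Year 1, 5 above and 3 below, and at Year 2, 6 above and 2 below. The ranges of the groups did not overlap for 57.7%, 61.7%, and 63.8% of all genes tested at the 3 years. The Year 0.5 count of members was thus near the share of all genes. *Tpsab1* and *Fcer1a* were not tested at Year 0.5, so its share does not cover them. *Tpsab1* there had 2, 1, and 5 counts in control rats and 21, 127, and 8 in treated rats. *Fcer1a* had 0, 4, and 4 counts in control rats and 5, 10, and 8 in treated rats. The tested members apart at that year, *Kit*, *Kitlg*, and *Hdc*, lay below.

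The levels of the members in control lungs fell into distinct ranges, compared per length as TPM. *Kitlg* and *Kit* were the highest, with group means of 98.8 to 135.4 TPM and 98.1 to 125.8 TPM over the 3 control groups, and their ranges overlapped at Year 0.5 and Year 2. *Hdc* followed with group means of 8.48 to 13.6 TPM. The proteases and IgE receptor chains had control group means of 0.289 to 1.66 TPM and overlapped widely, so their order in control rats could not be read. In MWCNT-treated rats of Year 2 the order of the means was *Tpsab1* at 92.9 ± 15.2 TPM (SD, n = 3), *Tpsb2* at 84.3 ± 6.33, *Kitlg* at 61.7 ± 3.03, *Cpa3* at 56.0 ± 9.0, *Kit* at 37.8 ± 2.44, *Cma1* at 32.3 ± 1.99, *Hdc* at 14.6 ± 1.69, *Ms4a2* at 12.8 ± 1.15, and *Fcer1a* at 11.9 ± 2.57. The ranges of *Tpsab1* and *Tpsb2* overlapped, as did those of *Kitlg* and *Cpa3*, and those of *Hdc*, *Ms4a2*, and *Fcer1a*. The other neighbours in this order did not overlap. The label of a mast cell gene set thus covered 6 genes that were near the lower limit of the counts in control lungs and rose at Year 2. It also covered 3 genes, *Kit*, *Kitlg*, and *Hdc*, that were well above that limit in control lungs. These 3 did not rise against the control rats of any year.

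The effects were then compared between years in one model of the 18 rats. From Year 0.5 to Year 2, the treatment effect differed at an FDR below 0.05 for *Ms4a2*, by 3.16 on the log2 scale (SE 0.73, edgeR FDR = 0.043), and for *Hdc*, by 0.83 (SE 0.20, edgeR FDR = 0.0462). That is 2 of 9 members, where 1.31% of all genes passed. The *Ms4a2* call was lost without any single rat of Year 0.5 or Year 2 other than MWCNT-treated rat 2 of Year 0.5, with values of 2.74 to 3.53 and edgeR FDR of 0.0557 to 0.127. The *Hdc* call was lost without any single rat of those years other than control rat 2 of Year 0.5, with values of 0.75 to 0.90 and edgeR FDR of 0.0585 to 0.128. The difference was 3.94 for *Tpsb2* (SE 1.00, edgeR FDR = 0.0616), 2.95 for *Cpa3* (SE 1.05, edgeR FDR = 0.203), and 2.98 for *Cma1* (SE 1.18, edgeR FDR = 0.255), and these did not pass. Without MWCNT-treated rat 2 of Year 0.5 the difference passed for *Tpsb2*, at 5.10 (edgeR FDR = 0.00729), and for *Cpa3*, at 4.01 (edgeR FDR = 0.0429). With all rats, *Tpsb2* passed in DESeq2 (3.99, FDR = 0.000983). With limma on log2(TPM + 1), *Tpsb2* (FDR = 0.0013), *Cpa3* (FDR = 0.0238), *Cma1* (FDR = 0.0433), *Tpsab1* (FDR = 0.00341), and *Fcer1a* (FDR = 0.00422) passed beside *Ms4a2*, and *Hdc* did not (FDR = 0.101). The edgeR FDR of *Hdc* was 0.0602 without a filter on low counts and 0.0738 when libraries were scaled by their totals alone. *Kit* and *Kitlg* had differences of -0.27 (SE 0.24, edgeR FDR = 0.681) and 0.07 (SE 0.13, edgeR FDR = 0.872). From Year 1 to Year 2, 0 members passed in edgeR, 5 had an unadjusted p below 0.05, and DESeq2 passed 3, beside 0.478% of all genes in edgeR. From Year 0.5 to Year 1, 0 members passed in edgeR or DESeq2 and 0 had an unadjusted p below 0.05, and no gene of the 14843 tested passed.

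Changes with time were tested within each treatment. In MWCNT-treated rats from Year 0.5 to Year 2, 7 members rose, where 1.44% of all genes rose. *Tpsb2* rose by 4.56 on the log2 scale (SE 0.44, edgeR FDR = 1.49e-05) and *Tpsab1* by 4.47 (SE 0.53, edgeR FDR = 5.59e-05). *Fcer1a* rose by 3.85, *Cma1* by 3.84, *Cpa3* by 3.72, and *Ms4a2* by 3.71. *Hdc* rose by 1.52 (SE 0.14, edgeR FDR = 9.71e-06). *Kit* had a log2 difference of -0.48 (SE 0.17, edgeR FDR = 0.0787) and *Kitlg* one of -0.38 (SE 0.10, edgeR FDR = 0.0142), inside the fold limit.

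From Year 1 to Year 2, 6 members rose in MWCNT-treated rats, where 0.499% of all genes rose. This count is likewise a description. *Fcer1a*, not tested within Year 1, had 6, 20, and 12 counts in the treated rats of that year. *Fcer1a* rose by 3.02, *Tpsab1* by 2.71, *Tpsb2* by 2.64, *Ms4a2* by 2.45, *Cma1* by 2.27, and *Cpa3* by 1.99, with edgeR FDR from 0.00117 for *Tpsb2* to 0.027 for *Cma1*. The *Cpa3* call was lost without MWCNT-treated rat 1 or 3 of either year, with log2 differences of 1.65 to 1.94 and edgeR FDR of 0.0567 to 0.1. The *Cma1* call was lost without rat 1 or 3 of Year 1 or any of the 3 rats of Year 2, with 1.84 to 2.32 and edgeR FDR of 0.0564 to 0.112. *Hdc* had a log2 difference of 0.96 (SE 0.14, edgeR FDR = 0.000933), inside the fold limit, and 1.08 without MWCNT-treated rat 2 of Year 1 and 1.03 without rat 1 of Year 2, past it. From Year 0.5 to Year 1, 0 members were called in edgeR or DESeq2, where 0.0472% of all genes were called in edgeR, and 6 members had an unadjusted p below 0.05.

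In control rats from Year 0.5 to Year 2, 0 members were called in edgeR or DESeq2, where 0.633% of all genes were called in edgeR. At an FDR below 0.05 without the fold limit, 2 members passed in each tool, beside 6.65% of all genes in edgeR, and they are those with an unadjusted p below 0.05 in edgeR. They were *Kitlg*, given above, and *Hdc*, with a log2 difference of 0.69 (SE 0.14, edgeR FDR = 0.00917). *Hdc* was thus higher at Year 2 than at Year 0.5 in both treatments, and by 0.83 more on the log2 scale in treated rats. From Year 1 to Year 2 and from Year 0.5 to Year 1, 0 members passed the FDR in either tool, and 2 and 3 had an unadjusted p below 0.05 in edgeR, where 0.499% and 0% of all genes were called.

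Single rats of a group differed widely at the earlier years, and the members differed together. MWCNT-treated rat 2 of Year 1 had the highest TPM of its group for *Cpa3*, *Tpsab1*, *Tpsb2*, *Cma1*, *Fcer1a*, and *Ms4a2* and the lowest for *Kit* and *Kitlg*. MWCNT-treated rat 2 of Year 0.5 was likewise the highest for 5 of those 6 genes, all but *Fcer1a*, and the lowest for *Kit* and *Kitlg*. Equal rat numbers at different years are different animals. After the mean of each group was subtracted from log2 CPM, Pearson's r over the 18 rats was 0.898 for *Tpsab1* and *Tpsb2* (Spearman's rho 0.761), 0.898 for *Tpsb2* and *Cma1* (rho 0.773), and 0.859 for *Cpa3* and *Tpsb2* (rho 0.721). It was -0.848 for *Kit* and *Cma1* (rho -0.893) and -0.801 for *Kit* and *Cpa3* (rho -0.748). *Kit* and *Cma1* had r = -0.857 in the 9 control rats and -0.927 in the 9 treated rats, and -0.827 over 16 rats, leaving out the 2 with the most extreme *Kit* values. *Kit* and *Cpa3* had r = -0.725, -0.951, and -0.742 in the same order. In the control rats *Cma1* had 2 to 17 counts and *Cpa3* had 6 to 26, so these control values rest on few counts. *Tpsab1* and *Tpsb2* had r = 0.501 in the control rats, where counts were low, and 0.995 in the treated rats. *Kit* and *Kitlg* had r = 0.671 (rho 0.554). *Hdc* had r between -0.419, with *Kit*, and 0.399, with *Tpsab1*. These are 36 pairs over rats that share libraries, lobe pieces, and scaling, and they are described without a test.

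**Figure D3:**
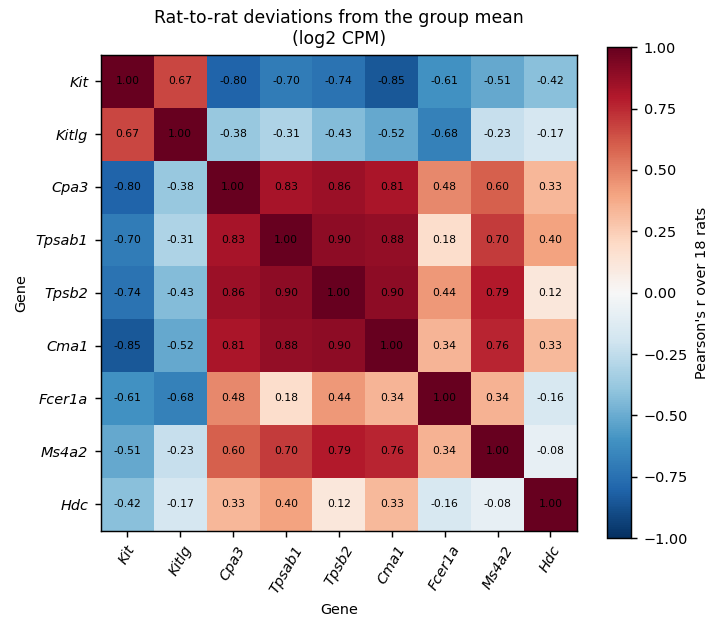
Pearson's r between the 9 genes over 18 rats, of log2 CPM after the mean of each of the 6 groups was subtracted. The 4 proteases form a block at 0.81 to 0.90, *Kit* is negative with all 4, and *Hdc* lies between -0.419 and 0.399 with the other members.

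The genes most like 4 of the members were listed by the same r, over 18 rats and 13946 genes. Those for *Kit* were *Fam171a1* (0.914), *Pgm2l1* (0.911), *Tal1* (0.896), *Gucy1a1* (0.891), and LOC103689922_1 (0.890). Those for *Cpa3* were *Mcpt1l1* (0.942), *Ubxn8* (0.936), *Arsb* (0.928), *Slamf8* (0.923), and *Anxa2* (0.911). Those for *Kitlg* were *Tmem47* (0.922), *Emp2* (0.897), *Nrp1* (0.882), *Taf9b* (0.877), and *Myo6* (0.870). Those for *Hdc* were *Depdc7* (0.848), *Aif1l* (0.799), LOC108349745 (0.797), *Pno1* (0.794), and *Ikzf5* (0.771). The gene most like *Cpa3*, *Mcpt1l1*, is another mast cell protease gene, and no member was among those most like *Kit*.

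Other genes of the mast cell granule and of its lipid mediators were tested from a list of 18 genes, of which 9 were tested at each year. At Year 0.5, 0 rose in edgeR and 1 fell, beside 6.07% and 3.03% of all genes. At Year 1, 2 rose and 0 fell, beside 6.13% and 4.09%, and at Year 2, 3 rose and 0 fell, beside 8.17% and 8.22%. At an FDR below 0.05 without the fold limit, 1 was higher and 2 lower at Year 0.5, beside 20.2% and 18.6% of all genes. At Year 1, 3 were higher and 0 lower, beside 21.6% and 19.6%. At Year 2, 5 were higher and 1 lower, beside 25.2% and 24%. *Srgn* was lower at Year 0.5 (-0.38, edgeR FDR = 0.0148) and at Year 2 (-0.58, edgeR FDR = 0.00139). At an unadjusted p below 0.05 there were 5, 4, and 6 genes, and DESeq2 called 1, 2, and 3. *Mcpt1l1* was at 3.51 ± 1.04 TPM (SD, n = 3) in control rats and 181.5 ± 10.5 TPM in MWCNT-treated rats at Year 2, above each of the 9 members. Its log2 fold change was 2.26 (SE 0.85, edgeR FDR = 0.0645) at Year 0.5, and it rose by 4.59 (SE 0.65, edgeR FDR = 0.000726) at Year 1 and 5.91 (SE 0.16, edgeR FDR = 1.49e-07) at Year 2. *Mcpt1*, a related protease gene, rose by 2.42 (edgeR FDR = 0.00212) at Year 1 and 1.93 (edgeR FDR = 0.00769) at Year 2. Reads of these paralogs could be split among them in ways the sources used here do not give. *Slc18a2*, which encodes the transporter that loads histamine into granules, rose by 1.12 (SE 0.17, edgeR FDR = 0.000599) at Year 2. *Hpgds*, the synthase of prostaglandin D2, fell by 1.15 (edgeR FDR = 0.0107) at Year 0.5 and had a log2 fold change of 0.64 (edgeR FDR = 0.175) at Year 2. *Mcpt4* and *Tpsg1* had at most 3 counts in any rat, and *Ctsg* had 0 counts in all rats.

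The signalling genes downstream of KIT stayed inside the fold limit. Of 16 genes, among them *Lyn*, *Ptpn6*, and *Stat5a*, 0 were called at any year in edgeR or DESeq2, with edgeR log2 fold changes from -0.58 to 0.78. At an unadjusted p below 0.05 there were 7, 10, and 14 genes at the 3 years. At an FDR below 0.05 without the fold limit, 6 were higher and 1 lower at Year 0.5, beside 20.2% and 18.6% of all genes. At Year 1, 5 were higher and 3 lower, beside 21.6% and 19.6%, and at Year 2, 10 were higher and 0 lower, beside 25.2% and 24%. The highest at Year 2 were *Ptpn6*, a phosphatase that restrains KIT signalling, at 0.78 (SE 0.08, edgeR FDR = 4.88e-05), and *Lyn*, a Src family kinase, at 0.67 (SE 0.08, edgeR FDR = 0.000165).

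Of 15 genes that act with the IgE receptor, 5 rose at Year 0.5, 4 at Year 1, and 7 at Year 2, and 0 fell, where 0 also fell in DESeq2. Of all genes, 6.07%, 6.13%, and 8.17% rose and 3.03%, 4.09%, and 8.22% fell. At an FDR below 0.05 without the fold limit, 12, 11, and 12 were higher, beside 20.2%, 21.6%, and 25.2% of all genes. At each year 1 was lower, beside 18.6%, 19.6%, and 24%. *Lat*, an adaptor protein, was lower at an FDR below 0.05 at each year and inside the fold limit. *Fcgr2b*, an inhibitory IgG receptor, rose by 3.04, 2.71, and 3.29 at the 3 years (edgeR FDR = 4.79e-06, 2.97e-06, and 3.71e-07). *Cd200r1*, an inhibitory receptor, rose by 1.75, 1.54, and 2.37, *Lat2*, an adaptor, by 1.65, 1.69, and 1.68, and *Btk*, a kinase, by 1.08, 1.09, and 1.66. *Fcer1g*, the gamma chain that the IgE receptor shares with IgG receptors, had log2 fold changes of 0.96, 1.00, and 0.94, inside the fold limit. Macrophages also express many of these genes, and the macrophage markers *Cd68*, *Marco*, *Mrc1*, *Msr1*, and *Adgre1* had a summed TPM of 134.7 to 210.3 in control rats and 551.1 to 839.4 in MWCNT-treated rats. Of those 5 markers, 4, 3, and 5 rose at the 3 years, beside the same 6.07%, 6.13%, and 8.17% of all genes. The part of macrophages in the result was not tested.

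Transcription factors of the mast cell lineage moved in both directions. *Mitf* rose by 1.36, 1.00, and 1.73 at the 3 years (edgeR FDR = 4.88e-05, 9.72e-05, and 4.27e-06) and *Spi1*, a myeloid factor, by 1.11, 1.33, and 1.26 (edgeR FDR = 1.35e-05, 4.38e-05, and 2.08e-06). *Gata2* fell at Year 2 by 1.49 (SE 0.13, edgeR FDR = 2.64e-05) and had log2 fold changes of -0.98 and -0.84 before. *Tal1* fell at Year 0.5 by 1.12 (SE 0.27, edgeR FDR = 0.0115) and at Year 2 by 1.33 (SE 0.12, edgeR FDR = 2.61e-05), with -0.92 (edgeR FDR = 0.0069) at Year 1. *Runx1* had log2 fold changes of 0.68, 0.63, and 0.80, and *Gata1* had at most 17 counts in any rat and was not tested. *Gata2* had a group mean of 143.8, 131.9, and 134.8 TPM in control rats and 66.3, 63.0, and 41.4 TPM in MWCNT-treated rats.

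Genes of lung capillaries moved in the direction of *Kit*, *Gata2*, and *Tal1*. The 5 markers of general capillary cells, *Gpihbp1*, *Plvap*, *Aplnr*, *Ptprb*, and *Cldn5*, were all lower at an FDR below 0.05 at each year. Of these, 3, 1, and 5 fell at the successive years. Of all genes, 18.6%, 19.6%, and 24% were lower at that FDR, and 3.03%, 4.09%, and 8.22% fell. The median log2 fold change of the 5 markers was -1.09, -0.84, and -1.53, beside -1.03, -0.79, and -1.31 for *Kit*. Their summed TPM ranged from 3199 to 4527 in control rats and from 745.3 to 2062 in MWCNT-treated rats. The 3 aerocyte markers tested, *Ednrb*, *Apln*, and *Tbx2*, were also lower at an FDR below 0.05 at each year, with medians of -0.84, -0.83, and -1.13. The part of capillary cells in the *Kit* result was not tested.

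**Figure D4:**
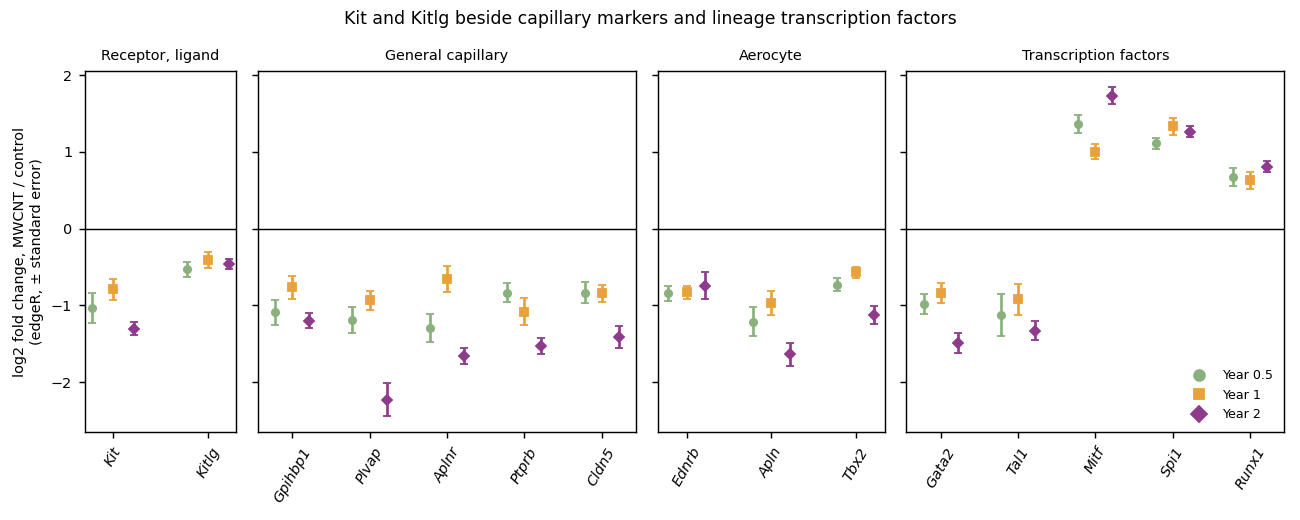
log2 fold change of MWCNT-treated against control rats, with the standard error as bars, for *Kit* and *Kitlg*, 5 general capillary markers, 3 aerocyte markers, and 5 transcription factors at each year. *Kit* lies at -1.03, -0.79, and -1.31, among the capillary markers and beside *Gata2* and *Tal1*, while *Mitf*, *Spi1*, and *Runx1* lie above 0.

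Cytokine and histamine genes were followed as well. *Il1rl1*, the receptor of IL-33 on mast cells and other immune cells, had a log2 fold change of 0.75 (edgeR FDR = 0.031) at Year 0.5 and rose by 1.16 (SE 0.21, edgeR FDR = 0.00276) at Year 1 and 1.97 (SE 0.21, edgeR FDR = 6.56e-05) at Year 2. *Il33*, an alarmin of barrier and endothelial cells, was at -0.81, -0.64, and -1.27, and fell at Year 2 (SE 0.09, edgeR FDR = 7.05e-06). *Csf2rb*, the shared beta chain of the IL-3 and IL-5 receptors, rose by 1.56, 1.61, and 1.89, and *Crlf2*, a chain of the TSLP receptor, rose by 1.15 at Year 1 and 1.21 at Year 2. The cytokines *Il3*, *Il5*, *Il9*, and *Il13* had 0 counts in all 18 rats, which allows up to 3 counts in a library. Of the 15 genes of this list, 7 were tested, and 1, 3, and 3 rose and 0, 0, and 1 fell. Of all genes, 6.07%, 6.13%, and 8.17% rose and 3.03%, 4.09%, and 8.22% fell at the 3 years. In the histamine list, *Aoc1*, which encodes a histamine-degrading oxidase, rose by 1.83, 2.08, and 2.00 at the 3 years (edgeR FDR = 0.000229, 0.000119, and 4.49e-05). *Hrh1*, a histamine receptor, rose by 1.62 (SE 0.51, edgeR FDR = 0.025) at Year 2, on 4 to 9 counts in control rats and 11 to 34 in MWCNT-treated rats. Of the 7 genes in the list, 2 were tested at Year 0.5 and 3 at each later year. *Hrh4* had 0 to 2 counts in the control rats of Year 2 and 7 to 13 counts in the treated rats, too low to test.

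**Figure D5:**
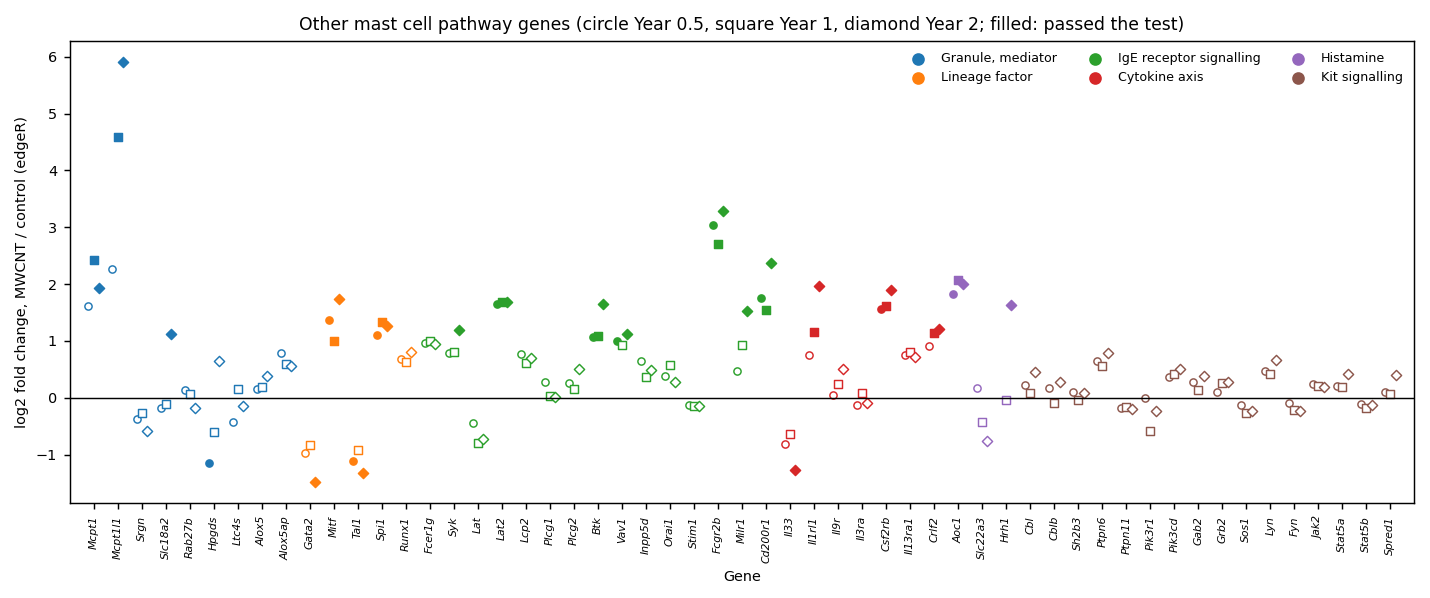
log2 fold change of MWCNT-treated against control rats for the tested genes of 6 lists, with circles for Year 0.5, squares for Year 1, and diamonds for Year 2, filled where the gene was called. *Mcpt1l1* reaches 5.91 and *Fcgr2b* 3.29 at Year 2, whereas the KIT signalling genes lie between -0.58 and 0.78.

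Markers of other granulocytes had few counts or moved in both directions. *Prss34*, a basophil marker, was too low for a test, with 0 counts in 17 rats and 2 counts in 1 MWCNT-treated rat of Year 2. The eosinophil markers *Epx* and *Prg2* had at most 8 and 5 counts in any rat, *Prg3* had 0 counts in all rats, and *Ccr3* fell by 2.04 (SE 0.27, edgeR FDR = 0.000279) at Year 2. The 5 eosinophil markers had a summed TPM of 2.50 to 5.09 in control rats and 0.971 to 2.79 in MWCNT-treated rats. Of 5 neutrophil markers, *S100a9* rose by 1.39, 2.36, and 2.21 at the 3 years and *S100a8* by 1.40 and 1.51 at Year 1 and Year 2, whereas *Csf3r*, *Cxcr2*, and *Mmp8* had edgeR FDR of 0.15 to 0.939. Thus 1, 2, and 2 of the 5 rose, beside 6.07%, 6.13%, and 8.17% of all genes. Other tissue in the pieces also varied. The 4 heart muscle markers had a summed TPM of 9.46 to 296.3 in control rats and 5.48 to 86.6 in MWCNT-treated rats. Of them, 4, 1, and 0 fell in edgeR at the 3 years, beside 3.03%, 4.09%, and 8.22% of all genes. *Myl2*, with log2 fold changes of -4.00 and -3.96 at the earlier years, was not tested at Year 2. The 3 markers tested there had log2 fold changes of -2.03 to -1.19. At Year 2, 1 had an unadjusted p below 0.05 in edgeR and DESeq2 called 0. The part of heart muscle in the results was not tested.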

How the data were processed

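RNA from the lungs of 18 rats was sequenced. The authors mapped reads with CLC Genomics Workbench 22.0.2, and the labels name Rnor_6.0 and rn6. They deposited whole-number counts per gene without normalization, and the deposited TPM values were computed by the authors from these reads. The treatment of multi-mapping reads and of strand is not given in the sources used here. Deposited TMM-adjusted CPM, RPKM, and the authors' comparison columns (fold changes, p-values, and FDR) were not used.

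The test was run with edgeR 4.0.16 in R 4.3.3 (filterByExpr, minimum count 10, minimum total 15, TMM, quasi-likelihood test). A year was fitted on its 6 rats, and means over years, interactions (FDR below 0.05, no fold limit), and time effects in one model of 18 rats with 6 group means. SE is the size of a log2 fold change over the square root of its F value. log2 CPM used a prior count of 2. Scripts were tested on simulated data. Alternatives used DESeq2 1.42.0, limma 3.58.1, other filters, scalings, and thresholds, and the leaving out of each rat. No 2 libraries of a group agreed within sampling noise. The 3 rats of a group are separate animals, and depth limits genes below 10 counts.

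Named genes were the 9 members, the called genes with the largest fold changes of each list (up to 4 at each year), markers of other cell types, and, for 4 members, the 5 genes most like them by Pearson's r among genes with a mean CPM of at least 1. *Runx1*, *Lat*, *Lyn*, *Ptpn6*, *Stat5a*, *Fcer1g*, *Srgn*, and genes given only as too low to test were added after their values were seen. The members and lists were chosen with earlier results of these data known.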

Additional observations from a re-analysis of the deposited data

Results flagged for a closer look

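The effect of treatment differed between Year 0.5 and Year 2 for *Ms4a2*, by 3.16 on the log2 scale (SE 0.73, edgeR FDR = 0.043), in a test of the difference itself over 18 rats. Its group mean went from 0.993 to 12.8 TPM in MWCNT-treated rats and from 0.572 to 0.823 TPM in control rats. The effect also differed for *Hdc*, by 0.83 on the log2 scale (SE 0.20, edgeR FDR = 0.0462), from below to above 0. Its group mean went from 5.37 to 14.6 TPM in MWCNT-treated rats and from 8.48 to 13.6 TPM in control rats. Of the 9 members, these 2 passed, and the number passing was 0 to 3 when single rats were left out, with *Ms4a2* and *Hdc* each losing the call without most of the single rats of these years.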

How the results depend on the processing

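Of the counts of called members under an alternative, 178 were within 1.5 times the value given above and 30 were not. At Year 0.5, 3 members were called, and 1 with at least 10 counts in every rat, 1 with limma on log2(TPM + 1), 5 with the FDR alone, 1 at an FDR below 0.01, and 0 to 5 when 1 rat was left out. The count was 0 without control rat 1 and without MWCNT-treated rat 2, 1 without control rat 2, and 5 without MWCNT-treated rat 3. With at least 10 counts in every rat, which removes genes that are low in control rats, 2 members were called at Year 1 against 5, and 3 at Year 2 against 7. For the interaction of Year 0.5 and Year 2, with 2 members, the count was 1 without a filter, 1 with library size only, 6 with limma on log2(TPM + 1), 0 at an FDR below 0.01, and 0 to 3 when 1 rat was left out. It was 0 without any 1 of the rats of Year 2, without control rat 1 or 3 of Year 0.5, and without MWCNT-treated rat 1 or 3 of Year 0.5. For the interaction of Year 1 and Year 2, with 0 members, it was 3 in DESeq2, 4 with limma on log2(TPM + 1), and 0 to 2 when 1 rat was left out. The count of 0 in control rats from Year 0.5 to Year 2 was 2 with the FDR alone. The count of 0 in MWCNT-treated rats from Year 0.5 to Year 1 was 2 without MWCNT-treated rat 2 of Year 0.5 and ranged from 0 to 2. The interaction of *Kitlg* from Year 0.5 to Year 2, near 0, turned to -0.0035 with library size only, -0.0087 with limma, and -0.0196 without control rat 1 of Year 0.5, and ranged up to 0.149 over the fits that left out 1 rat. The causes were not tested. At Year 2, the 7 calls of the members stayed at 7 in count without any single rat. In a fit with the rat number as a replicate block, 2, 5, and 7 members were called at the 3 years and 2 for the interaction of Year 0.5 and Year 2. In that fit *Cpa3* at Year 0.5 was not called (2.05, edgeR FDR = 0.0531), and for the interaction *Hdc* did not pass (0.83, edgeR FDR = 0.0581) whereas *Tpsb2* did (4.15, edgeR FDR = 0.0358). Rats with the same number did not deviate together (mean r 0.007 over 9 pairs, from -0.147 to 0.107). The labels give no pairing of the animals, and a check on 9 pairs cannot exclude one. Depth limits the 4 proteases and both IgE receptor chains in control rats, where the lowest control rat of each gene had 0 to 9 counts.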
